A study of Mus musculus with 14 samples.

Results

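The 10 genes described here encode matrix-degrading enzymes and their inhibitors: the matrix metalloproteinases Mmp2, Mmp3, Mmp8, Mmp9 and Mmp14, the ADAMTS enzymes Adamts1 and Adamts5, and the tissue inhibitors Timp1, Timp2 and Timp3. They were taken as every probe set, the group of short probes that reads 1 transcript on an Affymetrix array, whose only gene symbol in the platform annotation was one of these names. That gave 25 probe sets of the 45101 on the array, from 1 each for Mmp3, Mmp8, Adamts1 and Timp1 to 6 for Timp2. Expression was measured in whole lung of BALB/c mice, with 1 array per sample. Each sample is called 1 lung below, though the labels do not say that each came from a separate animal. The 4T1 group (4 lungs) came from mice with 4T1 mouse breast carcinoma cells, which the labels call metastatic, in the fourth mammary fat pad. The 67NR group (5 lungs) came from mice given the related 67NR cells, called nonmetastatic, at the same site, and the normal group (5 lungs) from mice injected with PBS alone. Perfused lungs were collected on day 6 or once tumours measured about 50 mm3. The ages and sexes of the mice and the order of collection are not stated, and each tumour class was a single cell line.

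Matrix metalloproteinases are secreted or membrane-bound zinc enzymes that are made as inactive precursors and cut collagens, elastin, laminins and many signalling proteins once activated. ADAMTS enzymes are related secreted proteases with thrombospondin repeats that cut proteoglycans such as versican and aggrecan. TIMPs bind the active site of these enzymes and block it, and they differ in their preferred partners: Timp1 binds the precursor of Mmp9, Timp2 helps Mmp14 to activate Mmp2, and Timp3 sits in the matrix and also blocks ADAMTS enzymes. In lung the enzymes come from different cells, with Mmp8 and Mmp9 stored in neutrophil granules and Mmp2, Mmp14 and the ADAMTS enzymes made largely by stromal cells.

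Array medians lay between 113.2 and 116.1 intensity units. All 10 lung epithelial markers lay above the level filter, and their summed intensity ranged from 72163 to 85114 in 4T1, 73412 to 86702 in 67NR and 74293 to 85919 in normal lungs. Changes were tested with limma on log2(intensity + 16) in a fit of all 14 arrays, with 1 probe set per gene and 10916 genes tested, and a Benjamini-Hochberg adjusted p under 0.05 counted as a change. All 10 genes passed the level filter, a mean log2 level over all arrays above 7.35; the mean of Mmp8 was under that limit in 67NR and in normal lungs, so it passed through its level in 4T1 lungs. A second fit held all 34958 probe sets with 1 symbol and no filter. Nothing in the labels ties each array to a separate animal, so the spread behind the p-values may be technical. The 3 comparisons share arrays with one another and are not independent.

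**Figure D1:**
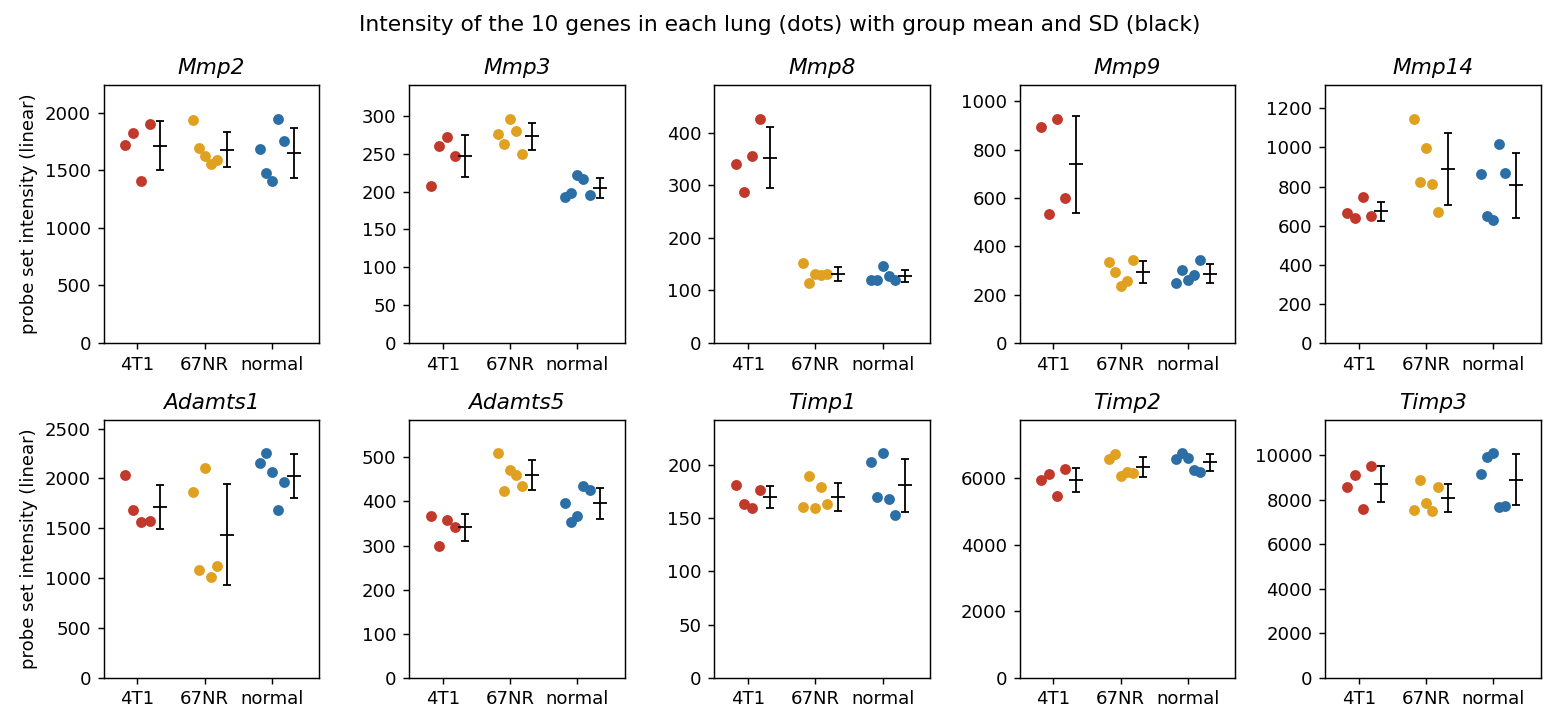
Linear intensity of the probe set used for each of the 10 genes, with 1 dot per lung in 4T1, 67NR and normal lungs and the group mean with SD in black. Mmp8 lay between 286.5 and 427.1 in 4T1 lungs and did not exceed 151.2 in 67NR or 146.6 in normal lungs, whereas Timp1, Timp2 and Timp3 overlapped between all groups.

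In 4T1 against normal lungs 2 of the 10 genes rose, Mmp8 and Mmp9, and 0 fell. Over all genes tested, 0.412% were called higher and 0% lower. Another 3 of the 10 genes, Mmp3, Adamts5 and Timp2, had an unadjusted p under 0.05, which 6.56% of all genes had. Mmp8, the neutrophil collagenase, cuts fibrillar collagens. Its intensity was 340.0, 286.5, 355.3 and 427.1 in 4T1 replicates 1 to 4. It was 151.2, 114.8, 130.8, 129.0 and 131.5 in the 67NR lungs and 120.2, 119.9, 146.6, 127.3 and 119.7 in the normal lungs. Every 4T1 lung lay above every other lung, a separation from normal lungs seen in 2.72% of all genes, and the ranges of 67NR and normal lungs overlapped. Mmp8 rose 2.56-fold in 4T1 against normal lungs (log2 change 1.36, SE 0.098, limma adjusted p = 3.48e-06; 95% interval 2.22 to 2.96-fold). In the fit without a filter it passed as well (adjusted p = 5.07e-05). Folds on the log2(intensity + 16) scale understate the change of dim genes, and on the plain intensity scale the ratio of means was 2.78. In 67NR against normal lungs its log2 change was 0.05 (adjusted p = 0.914), with a 95% interval from -0.15 to 0.24.

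Mmp8 lies in an unbroken run of 10 protein-coding Mmp genes on mouse chromosome 9, in which Mmp3 is also found. Of these, 9 had a probe set of their own, and Mmp27 was not analysed here. Apart from Mmp3 and Mmp8 the other 7 (Mmp13, Mmp12, Mmp1b, Mmp1a, Mmp10, Mmp20 and Mmp7) were under the level filter. Their log2 changes in 4T1 against normal lungs ranged from -0.17 to 0.21, against 1.36 for Mmp8. The region before the start of Mmp8 is shown beside that of Mmp3, since these were the 2 genes of the run bright enough to be tested and Mmp8 alone was called. Both are the 250 bases before the RefSeq gene start, and RefSeq entries were found for 7 of the 10 genes; Mmp2, Mmp9 and Adamts5 were not among them. Capitals mark matches to 4 short motifs searched on both strands: TGANTCA of AP-1, TTGCNNAA of the C/EBP type, the TATA box TATAAA, and AGGAAG of ETS factors.
Mmp8 promoter, chr9:7558179-7558428, plus strand, GRCm38.p6: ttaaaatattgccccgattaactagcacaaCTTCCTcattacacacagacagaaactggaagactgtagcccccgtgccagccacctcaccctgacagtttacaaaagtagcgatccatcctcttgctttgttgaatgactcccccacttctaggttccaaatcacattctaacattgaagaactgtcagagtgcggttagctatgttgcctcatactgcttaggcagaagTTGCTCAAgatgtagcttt
Mmp3 promoter, chr9:7445572-7445821, plus strand, GRCm38.p6: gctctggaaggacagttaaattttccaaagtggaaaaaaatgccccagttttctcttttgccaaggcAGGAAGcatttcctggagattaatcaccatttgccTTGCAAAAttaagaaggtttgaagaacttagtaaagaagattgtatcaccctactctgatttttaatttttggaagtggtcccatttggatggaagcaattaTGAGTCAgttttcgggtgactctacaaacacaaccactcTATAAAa
The Mmp8 stretch held the C/EBP-type match TTGCTCAA starting 19 bases before the gene start and an ETS match on the opposite strand. The Mmp3 stretch held a match to each of the 4 motifs, with the AP-1 match TGAGTCA starting 46 bases before the start. No matches overlapped. Over 32851 RefSeq mouse promoter entries cut to the same length, 6.75% held the AP-1, 9.56% the C/EBP-type, 12.4% the TATA and 29.5% the ETS letters. A match is a description of the letters and not a bound site.

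Mmp9, gelatinase B, degrades basement membrane collagen and gelatin and is known from neutrophil granules and macrophages. Its probe set 1416298_at had intensities of 893.5, 533.3, 928.1 and 599.4 in 4T1 replicates 1 to 4. In the 67NR lungs it had 335.2, 294.6, 236.6, 257.3 and 341.7, and in the normal lungs 247.7, 301.7, 260.8, 280.4 and 343.4. The 4T1 lungs again did not overlap the others, but they were less alike than for Mmp8, with replicates 2 and 4 well under replicates 1 and 3. Mmp9 rose 2.44-fold in 4T1 against normal lungs (log2 change 1.29, SE 0.16, limma adjusted p = 0.000747; 95% interval 1.92 to 3.10-fold). Its log2 change in 67NR against normal lungs was 0.025 (adjusted p = 0.974), with a 95% interval from -0.30 to 0.35.

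A second Mmp9 probe set, 1448291_at, was dimmer in normal lungs and changed more. It had 698.0, 378.7, 643.6 and 635.5 in 4T1 lungs, against 237.6, 136.7, 173.0, 160.5 and 142.9 in 67NR lungs and 159.6, 112.5, 109.1, 113.8 and 154.8 in normal lungs. Only replicate 2 stood apart among the 4T1 lungs on this probe set, and replicate 1 was the highest of the 67NR lungs. Its log2 change was 2.03 in 4T1 against normal lungs (SE 0.19, limma adjusted p = 0.000314 over all probe sets) and 0.34 in 67NR against normal lungs (adjusted p = 0.775). The ratio of mean intensities in 4T1 against normal lungs was 4.53 on this probe set and 2.58 on the other. The size of the Mmp9 change therefore depended on the probe set, while both were called. Of the 25 probe sets of the 10 genes, 3 were called in 4T1 against normal lungs, all higher and all of Mmp8 or Mmp9, against 0.186% of all probe sets.

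**Figure D2:**
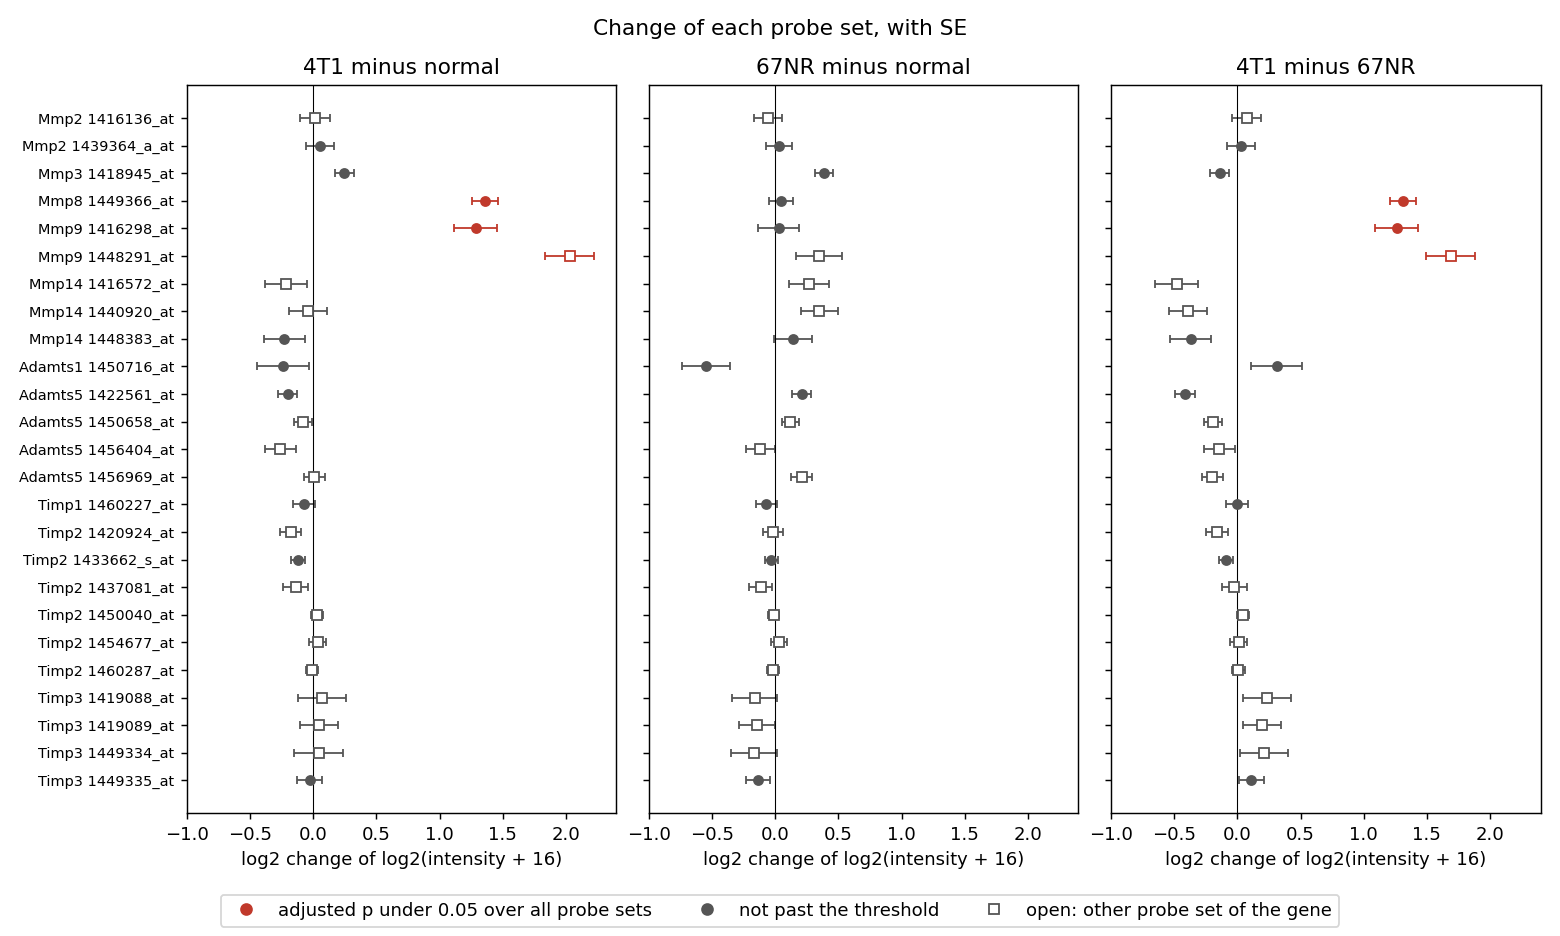
Log2 change with SE of each of the 25 probe sets in the 3 comparisons, from the fit of all probe sets without a filter, with red for an adjusted p under 0.05. The red points are those of Mmp8 and Mmp9, between 1.26 and 2.03, in 4T1 against normal and against 67NR lungs, and 67NR against normal lungs has none.

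Most tested markers of neutrophils moved with Mmp8 and Mmp9. Of 17 neutrophil markers with a value, 11 were tested, and 7 rose in 4T1 against normal lungs, with a median log2 change of 1.89. Among them Clec4d, Cxcr2, S100a9 and Stfa2l1 changed by 1.68, 2.41, 2.48 and 3.85 on the log2 scale. Stfa2l1, like Mmp8, passed the level filter through its level in 4T1 lungs, so the count and the median describe the markers that passed the filter and not the whole list. The summed intensity of the 17 markers ranged from 26855 to 37144 in 4T1 lungs, against 7990 to 11939 in 67NR and 6296 to 10224 in normal lungs. This linear sum is weighted towards the brightest markers, S100a8 and S100a9. Their mean log2 levels in 4T1 lungs were 13.45 and 13.43, against 11.01 for Stfa2l1, the next brightest. Within the 4T1 lungs the sum was lowest in replicate 2, which had the lowest Mmp8 and Mmp9, and highest in replicate 4, which had the highest Mmp8 but the second lowest Mmp9 on probe set 1416298_at. Of the 11, 0 passed in 67NR against normal lungs, with a median log2 change of 0.21, and in 4T1 against 67NR lungs 8 were higher, with a median of 1.55. In whole lung, more cells of a type and more RNA per cell cannot be told apart, and the part of these markers in the Mmp8 and Mmp9 results was not tested. The tested marker Hdc changed little, by 0.073 in 4T1 against normal and -0.14 in 4T1 against 67NR lungs. Ltf changed by 0.77 in 4T1 against normal lungs and did not pass (limma adjusted p = 0.628). Camp, Clec4e, Il1r2, Itgam, Mpo and Elane were under the level filter. Camp, Clec4e, Il1r2 and Itgam were higher in every 4T1 lung than in every normal lung, whereas Mpo and Elane overlapped. Prtn3, a neutrophil serine protease also under the filter, overlapped between 4T1 and normal lungs. It was higher in every 4T1 lung than in every 67NR lung.

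Other cell types gave few calls. Monocyte and interstitial macrophage markers had 1 of 11 tested genes higher in 4T1 against normal lungs, Fcgr4 (log2 change 0.41, limma adjusted p = 0.0475), a call lost in 16 of 25 alternatives (adjusted p 0.00526 to 0.180). In all 3 comparisons 0 of 6 alveolar macrophage, 0 of 12 fibroblast, 0 of 10 smooth muscle and pericyte, 0 of 10 endothelial, 0 of 10 epithelial, 0 of 4 adipose and 0 of 7 cardiac and skeletal muscle markers passed in limma. Summed fibroblast marker intensity was 33075 to 34500.5 in 4T1, 32011 to 34621 in 67NR and 32698 to 34181 in normal lungs. A missing call does not show equal levels. In 4T1 against normal lungs 6 of the 7 muscle markers had positive log2 changes, up to 1.33 for Nppa (limma adjusted p = 0.771). All 4 adipose markers did as well, up to 0.74 for Fabp4 (limma adjusted p = 0.863). For both genes the groups overlapped.

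The genes whose pattern was most like that of Mmp8 were found from the root mean square difference of log2 values over 14 arrays, after centring each of 10906 other genes on its mean. The nearest were Steap4 (0.178), Pglyrp1 (0.185), Ifitm1 (0.188), Clec4d (0.210) and Cd300lf (0.218), set against an own spread of Mmp8 of 0.619. For Mmp9, whose own spread was 0.622, they were Ifitm1 (0.227), Ccr1 (0.227), Pla2g7 (0.236), Steap4 (0.254) and Cd300lf (0.263). Ifitm1, Steap4 and Cd300lf were in both sets of 5.

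**Figure D3:**
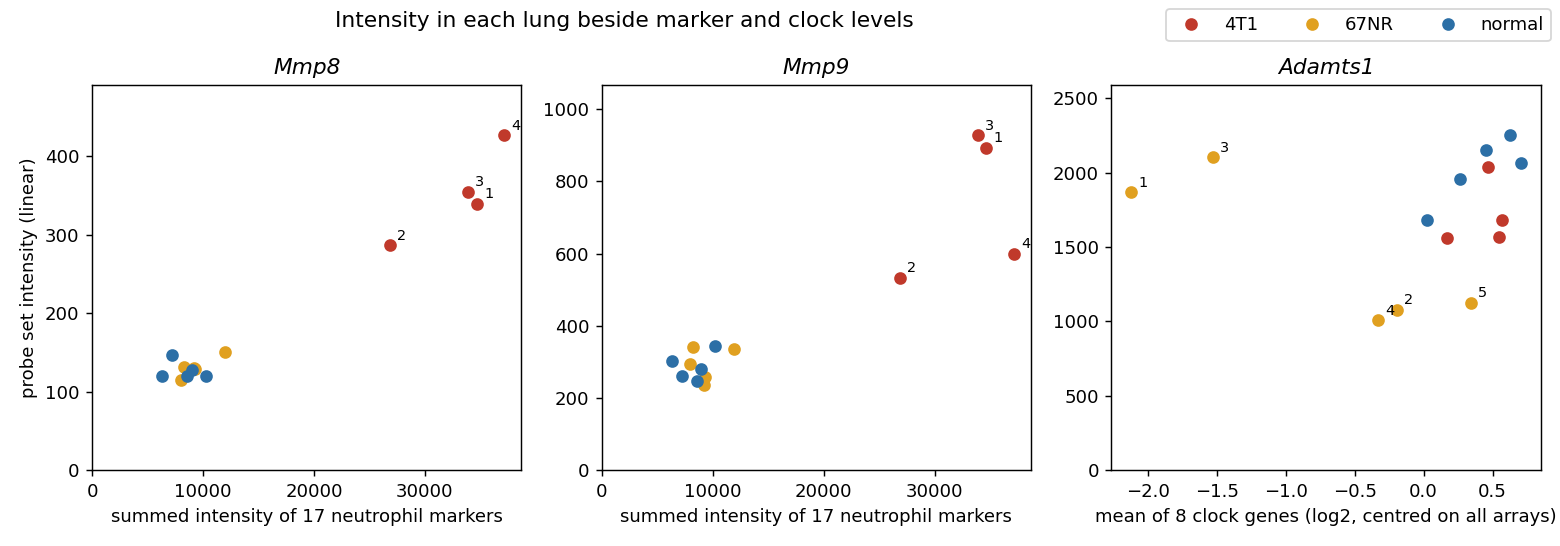
Linear intensity of Mmp8 and Mmp9 against the summed intensity of 17 neutrophil markers, and of Adamts1 against the mean log2 level of 8 clock genes, with 1 dot per lung. The sum is linear and is weighted towards the brightest markers, S100a8 and S100a9. Numbers give the replicate of 4T1 lungs in the Mmp8 and Mmp9 panels and of 67NR lungs in the Adamts1 panel, where replicates 1 and 3, at -2.12 and -1.53 on the clock axis, had Adamts1 intensities of 1867 and 2103.

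The third comparison set the lungs of mice with the 2 tumour lines against each other. Relative to 67NR lungs, 4T1 lungs had 2 of the 10 genes higher and 1 lower. Over all genes tested 0.559% were called higher and 0.202% lower. Mmp8 was 2.48-fold higher (log2 change 1.31, SE 0.098, limma adjusted p = 4.38e-06) and Mmp9 was also higher (log2 change 1.26, SE 0.16, adjusted p = 0.00110). Among probe sets 3 were called higher, the same 3 as against normal lungs, and 0 lower, against 0.217% of all probe sets called in either direction. With Mmp14 included, 4 genes had an unadjusted p under 0.05, against 12.4% of all genes.

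Adamts5, an aggrecanase that also cuts versican, was the gene that was lower. Its brightest probe set, 1422561_at, had 368.0, 298.4, 358.6 and 341.2 in 4T1 lungs, against 509.3, 424.4, 470.5, 460.3 and 434.3 in 67NR lungs. Normal lungs had 397.6, 353.9, 368.1, 434.5 and 425.2, between the 2 tumour groups and overlapping both. The 4T1 and 67NR lungs did not overlap, as was so for 4.56% of all genes. The log2 change in 4T1 against 67NR lungs was -0.41 (SE 0.076, limma adjusted p = 0.0199), which is 0.751 of the 67NR level. Against normal lungs Adamts5 had log2 changes of -0.20 in 4T1 (adjusted p = 0.595) and 0.21 in 67NR lungs (adjusted p = 0.400), so neither passed. The call in the direct comparison was not made in the fit of all probe sets (adjusted p = 0.0662). Leaving out a single lung also ended it in 3 cases. The adjusted p was 0.0548 with 4T1 replicate 2 omitted and 0.0644 with 4T1 replicate 4 omitted, and omitting 67NR replicate 3 gave 0.0524. With the mean of the gene's 4 probe sets it was 0.0775. Over 25 alternatives its adjusted p ranged from 0.0121 to 0.0990, the highest without 67NR replicates 1 and 3.

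The other Adamts5 probe sets had log2 changes of -0.20, -0.14 and -0.20 in 4T1 against 67NR lungs, all negative and none past the threshold. One of these, 1456969_at, read 7.3 at most on any array, next to no signal. The genes closest to Adamts5 in pattern were Car2 (root mean square difference 0.065), Cd40 (0.081), Azin1 (0.081), Grk5 (0.081) and Chst7 (0.089), against an own spread of 0.195.

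Adamts1, which cuts versican and aggrecan and is known as a gene induced by inflammation, varied most among 67NR lungs. Its intensity was 2036, 1680, 1562 and 1568 in 4T1 lungs. In 67NR lungs it was 1867, 1077, 2103, 1009 and 1125, and in normal lungs 2152, 2251, 2065, 1684 and 1959. Replicates 2, 4 and 5 of the 67NR group lay below every other lung, while replicates 1 and 3 lay within the normal range. The log2 change in 67NR against normal lungs was -0.55 (SE 0.18, limma adjusted p = 0.373) and did not pass, with a 95% interval from -0.94 to -0.16.

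The same split of the 67NR lungs was seen in clock output, the mean log2 level of 8 circadian genes (Ciart, Dbp, Hlf, Nr1d1, Nr1d2, Per2, Per3 and Tef), a set chosen in earlier work on these arrays after its values were seen. Relative to the mean of all arrays it stood at -2.12 and -1.53 in 67NR replicates 1 and 3, and at -0.20, -0.33 and 0.34 in replicates 2, 4 and 5. In 4T1 lungs it ranged from 0.17 to 0.57 and in normal lungs from 0.027 to 0.71. Without 67NR replicates 1 and 3, set aside for their clock output, the log2 change of Adamts1 in 67NR against normal lungs was -0.90. In 4T1 against 67NR lungs it was then 0.66. The lungs set aside were also the 67NR lungs of highest Adamts1, so the calls in that fit followed from the choice and are no support. Over 26 alternatives the log2 change of Adamts1 in 67NR against normal lungs stayed negative, from -0.90 to -0.41. Of these, only the fit without replicates 1 and 3 called it. The part of the clock or of collection time was not tested. In 4T1 against normal lungs the log2 change of Adamts1 was -0.24 (adjusted p = 0.947).

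In 67NR against normal lungs 0 of the 10 genes passed in limma, with 3 at an unadjusted p under 0.05. Those 3 were Mmp3, Adamts1 and Adamts5. Over all genes 0% were called, and 9.13% had such an unadjusted p. Of the 25 probe sets 0 were called, against 0.00286% of all probe sets. The clearest separation was that of Mmp3, stromelysin 1, which degrades proteoglycans and laminin and activates other metalloproteinase precursors. Its intensity was 275.9, 262.7, 296.7, 280.0 and 250.2 in 67NR lungs, against 193.5, 198.5, 222.4, 216.7 and 195.0 in normal lungs, and these did not overlap. Over all genes 1.65% did not overlap in this comparison. The log2 change was 0.39 (SE 0.069, limma adjusted p = 0.207), with a 95% interval from 0.24 to 0.53. The 4T1 lungs had 207.7, 260.4, 272.2 and 247.7, of which replicate 1 lay within the normal range and the others above it. In 4T1 against normal lungs the log2 change was 0.25 (adjusted p = 0.357), and between 4T1 and 67NR lungs it was -0.14 (adjusted p = 0.462). The order of mean intensity was thus 67NR (273.1 ± 17.6, SD, n = 5), 4T1 (247.0 ± 28.0, SD, n = 4) and normal (205.2 ± 13.4, SD, n = 5), with no neighbouring pair called.

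Mmp14, the membrane-type enzyme that activates Mmp2 at the cell surface, was also highest on average in 67NR lungs, but lowest in 4T1 lungs, without a call. Its brightest probe set had 662.8, 637.0, 744.8 and 650.5 in 4T1 lungs, against 1148, 823.8, 996.2, 811.7 and 669.1 in 67NR lungs. Normal lungs had 862.5, 648.6, 628.1, 1019 and 870.0 and spanned the 4T1 values and most of the 67NR values. Its log2 change in 4T1 against 67NR lungs was -0.37 (SE 0.15, limma adjusted p = 0.342; 95% interval -0.70 to -0.040), and its 3 probe sets had changes of -0.48, -0.39 and -0.37. The change of the brightest in 67NR against normal lungs was 0.14 (adjusted p = 0.828). It was -0.050 without 67NR replicates 1 and 3, which had the highest Mmp14. In 4T1 against normal lungs it was -0.23 (adjusted p = 0.906).

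Mmp2, gelatinase A, overlapped between all 3 groups. The brighter of its 2 probe sets averaged 1716 ± 217 in 4T1 (SD, n = 4), 1680 ± 152 in 67NR (SD, n = 5) and 1655 ± 218 in normal lungs (SD, n = 5). Its log2 change was 0.05 in 4T1 against normal lungs (limma adjusted p = 0.986; 95% interval -0.17 to 0.28) and 0.027 in 67NR against normal lungs (adjusted p = 0.955).

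**Figure D4:**
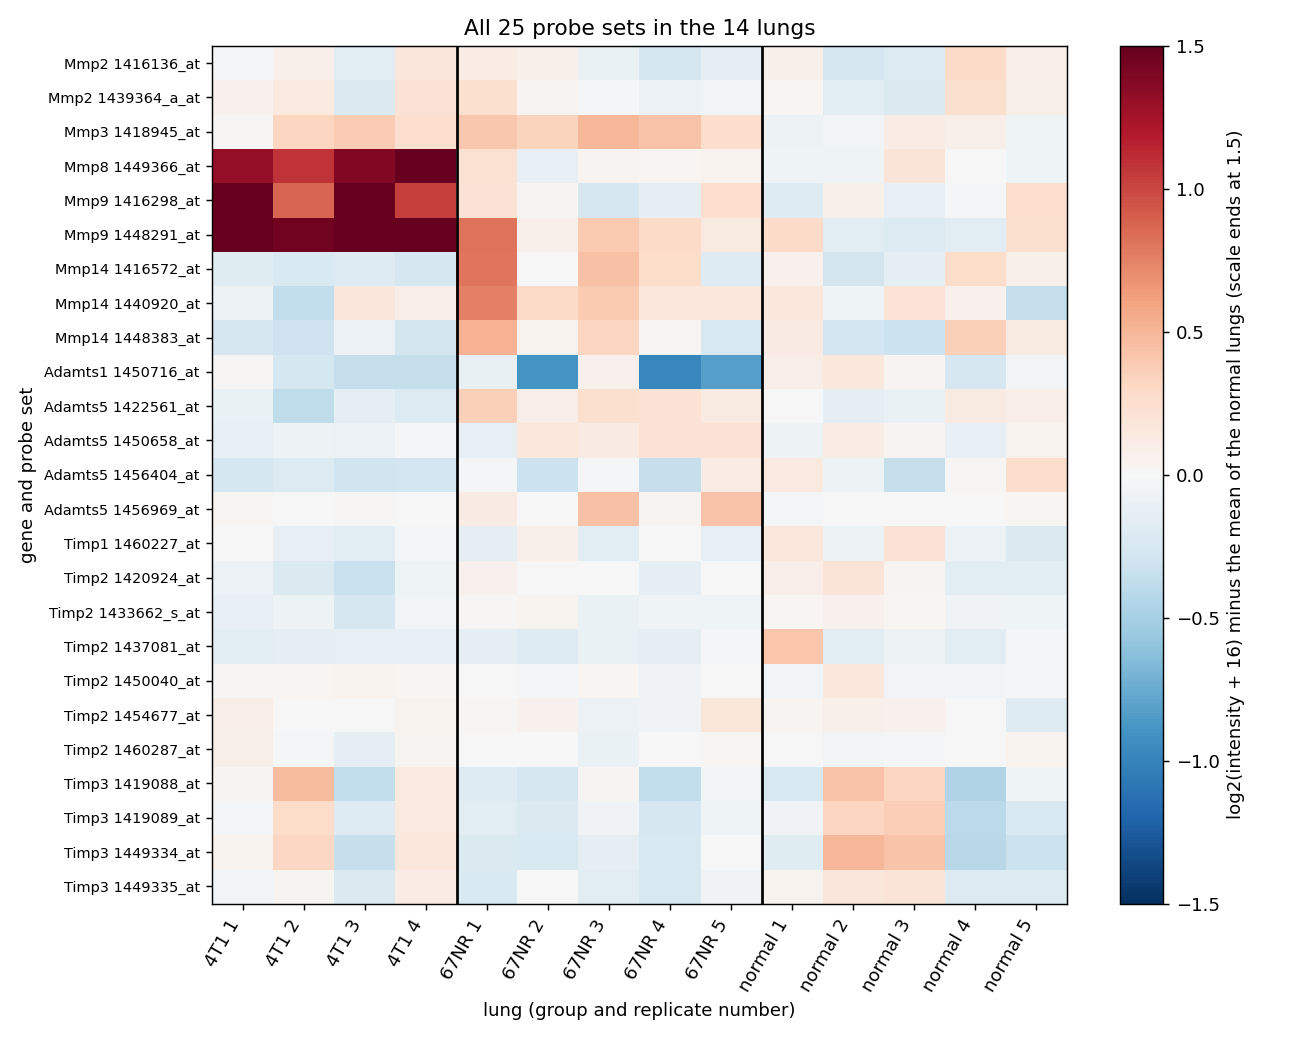
Log2(intensity + 16) of the 25 probe sets in each of the 14 lungs minus the mean of the normal lungs, with black lines between 4T1, 67NR and normal lungs and colours that saturate at 1.5. The columns show Mmp8 and Mmp9 high in every 4T1 lung, Adamts1 low in 67NR replicates 2, 4 and 5, and the 4 probe sets of Timp3 higher in normal replicates 2 and 3 than in normal replicates 4 and 5.

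None of the 3 inhibitor genes passed in any comparison by limma: 0 of their 11 probe sets were called. At an unadjusted p under 0.05 in the fit of genes, Timp2 in 4T1 against normal lungs was the single inhibitor over the 3 comparisons. Timp1, the partner of the Mmp9 precursor, had intensities of 181.0, 163.0, 159.7 and 176.8 in 4T1 lungs, within the normal span of 152.6 to 211.1. The 67NR lungs lay between 159.4 and 189.5, inside the same span. Its log2 change in 4T1 against normal lungs was -0.07 (SE 0.085, limma adjusted p = 0.967; 95% interval -0.25 to 0.11), which holds no rise of the size of Mmp8 or Mmp9.

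Timp2 was read by 6 probe sets, of which 1437081_at gave 16.8 at most on any array. The brightest, 1433662_s_at, had a suffix that marks probes which may match more than 1 gene. It averaged 5960 ± 361 in 4T1 (SD, n = 4), 6344 ± 294 in 67NR (SD, n = 5) and 6483 ± 247 in normal lungs (SD, n = 5). The log2 change in 4T1 against normal lungs was -0.12 (SE 0.052, limma adjusted p = 0.691; 95% interval -0.23 to -0.011), and over the 6 probe sets changes ran from -0.18 to 0.037. In 67NR against normal lungs the brightest had a change of -0.032 (adjusted p = 0.882).

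Timp3, the matrix-bound inhibitor, had 4 probe sets, and the brightest averaged 8708 ± 828 in 4T1 (SD, n = 4), 8067 ± 633 in 67NR (SD, n = 5) and 8909 ± 1166 in normal lungs (SD, n = 5). Its log2 changes were -0.028 in 4T1 against normal lungs (limma adjusted p = 0.993; 95% interval -0.23 to 0.18) and -0.14 in 67NR against normal lungs (adjusted p = 0.700). The 95% intervals of the inhibitors in the 2 comparisons with normal lungs thus ran from -0.33 to 0.11 for changes on the log2 scale, except that of Timp3 in 4T1 lungs, which reached 0.18.

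Genes that work beside these enzymes were followed in 8 further lists, which held 113 genes, 99 with a value and 65 tested. In 4T1 against normal lungs 1 rose and 0 fell, in 67NR against normal lungs 0 passed in limma, and in 4T1 against 67NR lungs 2 were higher and 0 lower. At an unadjusted p under 0.05 there were 11, 8 and 8 of the 65 in the same order, beside 6.56%, 9.13% and 12.4% of all genes. Median log2 changes of the 65 genes were 0.048, 0.0076 and 0.031 in the same order, beside -0.00077, -0.0010 and -0.00079 over all genes tested. Slpi, an inhibitor of neutrophil elastase, was the gene higher in 4T1 against normal lungs (log2 change 0.64, SE 0.12, limma adjusted p = 0.0217). Its call was lost in 9 of 26 alternatives, with adjusted p-values from 0.00292 to 0.109 and losses without 4T1 replicate 1, 3 or 4 or normal replicate 2, 4 or 5. Lcn2, whose product binds that of MMP9 in human neutrophils, was higher in 4T1 than in 67NR lungs (log2 change 0.50, SE 0.081, adjusted p = 0.00902). It did not pass without 67NR replicates 1 and 3 (adjusted p = 0.0678). Against normal lungs Lcn2 changed by 0.32 in 4T1 (limma adjusted p = 0.178) and -0.18 in 67NR lungs (adjusted p = 0.519). Adam8, a membrane protease of leukocytes, was higher by 0.55 in 4T1 than in 67NR lungs (SE 0.12, limma adjusted p = 0.0471). This call was lost in 16 of 25 alternatives, among them the replicate block (adjusted p = 0.0841), with adjusted p-values up to 0.136. Against normal lungs Adam8 changed by 0.31 in 4T1 (adjusted p = 0.611) and -0.25 in 67NR lungs (adjusted p = 0.531).

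Of the other 18 matrix metalloproteinases listed, 13 had a value, 2 of these (Mmp11 and Mmp23) lay above the level filter, and neither passed in any comparison. Mmp11, stromelysin 3, had log2 changes of -0.27 in 4T1 against normal lungs (limma adjusted p = 0.938) and -0.51 in 4T1 against 67NR lungs (adjusted p = 0.346). Of 17 other ADAMTS genes 5 were tested and 0 passed. Adamts8 and Adamts10 had the smallest p in 4T1 against normal lungs, with log2 changes of 0.26 (adjusted p = 0.380) and 0.11 (adjusted p = 0.956).

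Among the tested genes of plasminogen activation, a protease cascade that can activate metalloproteinase precursors, 0 of 5 passed in any of the comparisons. S100a10, a plasminogen-binding subunit, and Plgrkt, a plasminogen receptor, had the smallest p in 4T1 against normal lungs, with log2 changes of 0.20 (limma adjusted p = 0.735) and -0.12 (adjusted p = 0.907). In a list of cathepsins, mostly lysosomal proteases, and the cystatins Cst3 and Cstb, which inhibit them, 0 of 12 genes passed in any comparison. Ctse and Ctsh, an aspartic and a cysteine protease, had the smallest p in 4T1 against normal lungs, with log2 changes of 0.32 (adjusted p = 0.678) and 0.14 (adjusted p = 0.695). Of 21 tested matrix substrates 0 passed. Col4a3, a basement membrane collagen chain, and Fn1, fibronectin, had log2 changes of 0.14 (adjusted p = 0.670) and 0.12 (adjusted p = 0.732) in 4T1 against normal lungs. Eln, the elastin precursor, had a log2 change of 0.72 in 67NR against normal lungs (adjusted p = 0.304) and -0.88 in 4T1 against 67NR lungs (adjusted p = 0.0855). The difference between 4T1 and 67NR lungs passed in 2 of 26 alternatives, which omitted 67NR replicate 5 (adjusted p = 0.0405) or normal replicate 4 (adjusted p = 0.0473). In the other 24 it did not pass, with adjusted p-values up to 0.213. Lama3, a laminin chain, had a log2 change of 0.19 in 67NR against normal lungs (adjusted p = 0.437).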

How the data were processed

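Per the labels' protocols, 3 ug of total RNA from perfused lung was converted to biotin-labelled cRNA for Affymetrix arrays. The deposited table holds linear probe set intensities for 14 samples; their summarisation and normalisation are not given in the sources used here. Names came from the platform's annotation of 2016, with 34958 carrying 1 symbol, 932 several and 9211 none; only the first kind was used. The symbols of all 25 member probe sets are current in RefSeq (GRCm38.p6), which served for names, gene order and promoter sequences.

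Intensities were converted to log2(intensity + 16). Of 18194 genes, each read by its brightest probe set, the upper 60% by mean level (above 7.35) were tested with limma 3.58.1 in R 4.3.3, with 1 mean per group and 11 residual degrees of freedom. The filter averages all arrays and so favours genes high in any 1 group. A second fit took all 34958 probe sets. P-values are two-sided and adjusted over all features of a fit. The number of arrays limits the precision. The steps were also run on simulated data with independent noise for each gene. Such data do not copy effects shared between genes or a split within a group.

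Members and lists were chosen with earlier results of these data known. Named were all members, up to 4 list genes past the threshold or otherwise up to 2 of smallest p, and the 5 genes of most similar pattern for members past it. Some markers and list genes were also named for their level, for the size of a change without a call or for a lack of change. The labels number replicates alike in each group without stating a pairing. Deviations from the group mean of same-numbered arrays correlated between -0.34 and 0.219 over 13 pairs, 3 of them above 0.1. Differently numbered arrays correlated between -0.284 and 0.363 over 52 pairs, 19 of them above 0.1. The numbers were not taken as pairs, though low correlations cannot exclude a pairing. Alternatives covered normalisation, offset, filter, probe set choice, variance model, array weights, samples fitted and arrays left out.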

Additional observations from a re-analysis of the deposited data

Results flagged for a closer look

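Dixon's test for a single value far from the rest of its group was applied to log2(intensity + 16) of the 25 probe sets in each of 3 groups, 75 in all, and 5 stood out, where chance gives about 3.75 at the 5% level. For Mmp9 probe set 1448291_at, 4T1 replicate 2 lay below the other 4T1 lungs, with a gap of 0.845 of the group's range (8.62 against 9.35 to 9.48 on that log2 scale). For Adamts5 probe set 1450658_at, 67NR replicate 1 was the lowest 67NR lung, at an intensity of 128.3 with a gap of 0.733. The other 3 were probe sets of Timp2. Normal replicate 1 was highest on 1437081_at, at 16.8 with a gap of 0.736, on a probe set with next to no signal. Normal replicate 2 was highest on 1450040_at, at 1926 with a gap of 0.890, and 67NR replicate 3 was lowest on 1460287_at, at 4218 with a gap of 0.917.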

How the results depend on the processing

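Counts of called members were recomputed under 26 alternatives for genes and 25 for probe sets. Limited to the upper 40% of genes by level, 0 genes were called in 4T1 against normal lungs and 0 in 4T1 against 67NR lungs, because only 5 of the 10 genes were then tested and Mmp8 and Mmp9 were not among them. Over all 7278 genes then tested, 26 were called in 4T1 against normal and 78 in 4T1 against 67NR lungs. The same filter left 17 of the 25 probe sets and 1 call in 4T1 against normal lungs. Over all 13983 probe sets then tested, 46 were called. Without the 67NR lungs of low clock output, 1 gene and 1 probe set, both of Adamts1, were called in 67NR against normal lungs. Over all features of those fits, 11 of 10916 genes and 5 of 34958 probe sets were called. The lungs left out were also the 67NR lungs of highest Adamts1. With 1 lung left out at a time, the genes called in 4T1 against 67NR lungs numbered 2 to 3, and no other count moved. With replicate number as a block the counts of genes were 2 in 4T1 against normal lungs, 0 in 67NR against normal lungs and 3 in 4T1 against 67NR lungs, as without it, and the calls of Slpi, Fcgr4 and Adam8 were lost. The block was not used otherwise, since the labels state no pairing of same-numbered arrays. Wherever it was tested, Mmp8 kept its calls, with adjusted p-values from 1.24e-06 to 0.000149 against normal and 2.33e-06 to 0.000344 against 67NR lungs, as did Mmp9, with 2.61e-05 to 0.00802 and 0.000103 to 0.0149.

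Changes that turned sign were small. In 67NR against normal lungs, leaving out the lungs of low clock output gave -0.050 for Mmp14, -0.027 for Mmp2 and -0.015 for Mmp8, and Mmp2 also became -0.017 with the mean of its probe sets and -0.00057 with array weights. Timp1 in 4T1 against 67NR lungs became 0.0046 with quantile normalisation, 0.0051 with median centring and 0.027 with array weights. Timp3 in 4T1 against normal lungs became 0.034 with the mean of its probe sets and 0.043 with array weights. With 1 lung left out, the change of Mmp2 ranged from -0.0018 to 0.14 in 4T1 against normal lungs, -0.028 to 0.088 in 67NR against normal lungs and -0.027 to 0.12 in 4T1 against 67NR lungs. In 67NR against normal lungs the ranges were -0.00032 to 0.094 for Mmp8 and -0.031 to 0.094 for Mmp9. That of Timp1 was -0.029 to 0.035 in 4T1 against 67NR lungs, and that of Timp3 -0.078 to 0.035 in 4T1 against normal lungs. The cause of these turns was not tested.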

Other observations

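Within the normal lungs, Timp3 was high in the lungs where the brightest probe set of Mmp14 and both of Mmp2 were low. Timp3 stood at 9924 and 10089 in normal replicates 2 and 3, against 9146, 7687 and 7698 in replicates 1, 4 and 5, and these 2 lungs were the highest normal lungs on all 4 Timp3 probe sets. The brightest Mmp14 probe set was lowest in the same 2 lungs, at 648.6 and 628.1, against 862.5, 1019 and 870.0 in the others. Mmp2 was lowest there too, at 1476 and 1409.5, against 1684, 1951 and 1754. The Mmp14 probe set 1416572_at was also lowest in these lungs, at 219.9 and 245.7. So were the Adamts5 probe sets 1422561_at, at 353.9 and 368.1, and 1456404_at, at 268 and 217.3. The Adamts5 probe set 1450658_at was instead highest in replicate 2 (154.6). Timp2 differed by probe set. Its brightest, 1433662_s_at, was highest in replicates 2 and 3, at 6755 and 6621, as was 1454677_at, at 4996 and 4949. By contrast 1460287_at was lowest in these lungs, at 4424 and 4475. The Timp2 probe sets 1420924_at (3587) and 1450040_at (1926) were highest in replicate 2 but not second highest in replicate 3. Other values did not follow this order: the dimmest Mmp14 probe set was highest in replicate 3 (91.3), as were Mmp3 (222.4) and Mmp8 (146.6), and Adamts1 was highest in replicate 2 (2251) and lowest in replicate 4 (1684). Clock output was 0.63 and 0.71 in these 2 lungs and 0.45, 0.027 and 0.26 in replicates 1, 4 and 5. In 4T1 lungs replicate 3 had the lowest Timp3 (7604) and the highest Mmp14 (744.8), but also the lowest Mmp2 (1412). These are values of single lungs, picked after they were seen, and were not tested.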
